A study of Mus musculus with 18 samples.

Results

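Tpd52l1, Sfxn5, Cyp2j6 and Gsta4 are 4 mouse genes that were among the most strongly lowered in the liver after an antisense oligonucleotide (ASO) against ACAT2. They are 4 of the 17097 genes measured, and 5 of the 45037 probe sets belong to them. They were chosen by name because their values were lower with the ACAT2 ASO than with the control ASO, so that difference is described for them without a test. The measurements that the choice did not use are those in mice carrying an NPC1L1 transgene, and these were tested. The spread in these tests was estimated over all 18 samples, so it draws also on the ASO samples that the choice used. An ASO is a short synthetic strand of nucleic acid that pairs with a transcript and lowers it. ACAT2 is an enzyme of liver and intestine that joins fatty acids to cholesterol for storage and secretion, and NPC1L1 is a membrane protein that takes up cholesterol.

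RNA from the liver of female mice, 6 to 8 weeks old, was measured on 18 Affymetrix MG-430 PM arrays, 1 array per sample. In the transgenic model, 5 wild type samples and 5 samples with a liver NPC1L1 transgene were compared, both on C57BL/6. In the ASO model, 4 samples had received the ACAT2 ASO and 4 a non-targeting control ASO, both on C57BL/6N, so the controls had also received an oligonucleotide. The promoter and species of the transgene, and the dose and duration of the ASO, were not stated in the labels. The targeted transcript is not analysed here, and how far the ASO lowered it was not checked. Samples are numbered within a group, and nothing says that they came from separate animals. A p-value therefore covers only the spread among these samples, part of which may be technical.

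Values are log2 signals after RMA, a method that corrects background, equalises arrays and summarises the probes of a set. The median signal of an array was 4.61 to 4.65 in the transgenic model and 4.38 to 4.40 in the ASO model, so levels were compared only within a model. All 12 hepatocyte marker genes were measured, and their mean per array was between 11.7 and 12.3. In 3 groups 1 array had a lower mean correlation with its own group than the rest. These were wild type 2 (0.989), ACAT2 ASO 1 (0.992) and control ASO 4 (0.990), and values without them are given below. The signal of Actb, from its 3′ probe set minus its 5′ probe set, was 1.05 ± 0.05 (SD, n = 4) with the control ASO and 1.05 ± 0.11 (SD, n = 4) with the ACAT2 ASO. In wild type samples it was 0.91 ± 0.08 and with the transgene 1.02 ± 0.17 (SD, n = 5 each). For Gapdh the same measure was 0.17 ± 0.03 with the control ASO and 0.19 ± 0.10 with the ACAT2 ASO (SD, n = 4 each). It was 0.18 ± 0.05 in wild type and 0.21 ± 0.07 in transgenic samples (SD, n = 5 each). In whole liver RNA, fewer cells of a type and less RNA per cell cannot be told apart.

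The 4 genes encode proteins of unlike roles. Tpd52l1 belongs to the tumour protein D52 family, small coiled-coil proteins that bind one another and have been linked to vesicle traffic and cell division. Sfxn5 is a sideroflexin, a carrier protein of the inner mitochondrial membrane, in a family that includes a serine carrier and whose member Sfxn5 has been linked to citrate transport. Cyp2j6 is a cytochrome P450 of the family that oxidises arachidonic acid and other polyunsaturated fatty acids to epoxides. Gsta4 is a glutathione transferase of the alpha class that joins glutathione to 4-hydroxynonenal, a toxic aldehyde formed when lipids are peroxidised.

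The genes lie on different chromosomes, and the sequence before their start sites is shown because they were lowered together. Of the 4 genes, 3 matched the RefSeq promoter table (build GRCm38.p6). The 250 bases before the start given there lie on the minus strand at chr10:31445959-31446208 for Tpd52l1, chr6:85333423-85333672 for Sfxn5 and chr4:96553652-96553901 for Cyp2j6. They are written 5′ to 3′ and end at the base before the start. Capitals mark exact matches, on either strand, to a fixed set of short motifs.
Tpd52l1: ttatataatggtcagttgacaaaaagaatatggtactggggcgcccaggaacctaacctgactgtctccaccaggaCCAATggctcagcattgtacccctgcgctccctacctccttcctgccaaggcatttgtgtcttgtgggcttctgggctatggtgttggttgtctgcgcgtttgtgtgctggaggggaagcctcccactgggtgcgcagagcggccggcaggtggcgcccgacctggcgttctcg
Sfxn5: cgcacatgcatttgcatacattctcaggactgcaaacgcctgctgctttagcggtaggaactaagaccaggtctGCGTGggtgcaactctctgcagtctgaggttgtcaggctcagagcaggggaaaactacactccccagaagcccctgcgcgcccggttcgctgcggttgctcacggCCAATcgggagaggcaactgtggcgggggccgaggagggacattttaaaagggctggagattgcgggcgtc
Cyp2j6: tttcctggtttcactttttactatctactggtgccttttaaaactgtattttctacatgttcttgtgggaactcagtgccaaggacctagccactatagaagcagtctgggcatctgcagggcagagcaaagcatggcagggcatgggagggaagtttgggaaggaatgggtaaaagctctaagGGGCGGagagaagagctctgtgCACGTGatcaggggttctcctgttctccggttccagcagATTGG

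The motifs searched on both strands were TATAAA (a core promoter box), CCAAT (bound by NF-Y), GGGCGG (bound by Sp1), CACGTG (E-box), TGANNNNGC (antioxidant response element, bound by NRF2), AGGTCA (nuclear receptor half-site) and GCGTG (bound by the Ah receptor and hypoxia factors). CCAAT was in all 3 windows, 174 to 170 bases before the Tpd52l1 start, 71 to 67 before that of Sfxn5 and, on the opposite strand, 5 to 1 before that of Cyp2j6. Among 32851 windows of the same length, 33.8% held CCAAT. Sfxn5 also held GCGTG at 176 to 172, which 28.2% of windows held. Cyp2j6 also held GGGCGG at 66 to 61 and CACGTG at 44 to 39, which 32.7% and 6.02% of windows held. No matches overlapped. TATAAA, TGANNNNGC and AGGTCA were in none of the 3 windows, which 12.4%, 35.2% and 14% of windows held. The windows of Tpd52l1 and Sfxn5 were richer in G and C (58% and 59.2%, with 11 and 15 CpG sites) than the median window (52.4% and 6 CpG). Cyp2j6 was below it (49.6% and 3 CpG), and its start in the table lies inside the annotated gene. A match describes letters, not a bound site.

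The working description of these genes as short held only against a set of very long genes lowered in the same comparison. From first to last annotated base, Gsta4 on chromosome 9 covered 17.4 kb and Cyp2j6 on chromosome 4 covered 48.2 kb. Tpd52l1 on chromosome 10 covered 114 kb and Sfxn5 on chromosome 6 covered 120.4 kb. These spans were at the 45.8th, 74.0th, 89.5th and 90.2th percentile of 17053 measured genes, whose median was 20.1 kb with quartiles of 7.87 and 50.4 kb. The 6 long genes Stx8, Snd1, Fbxl17, Atrnl1, Exoc4 and Sugct covered 241 to 837 kb. Over all 71 genes called lower after the ACAT2 ASO the median span was 24.4 kb, and over the 31 called higher (0.181% of genes) it was 23.9 kb.

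**Figure D1:**
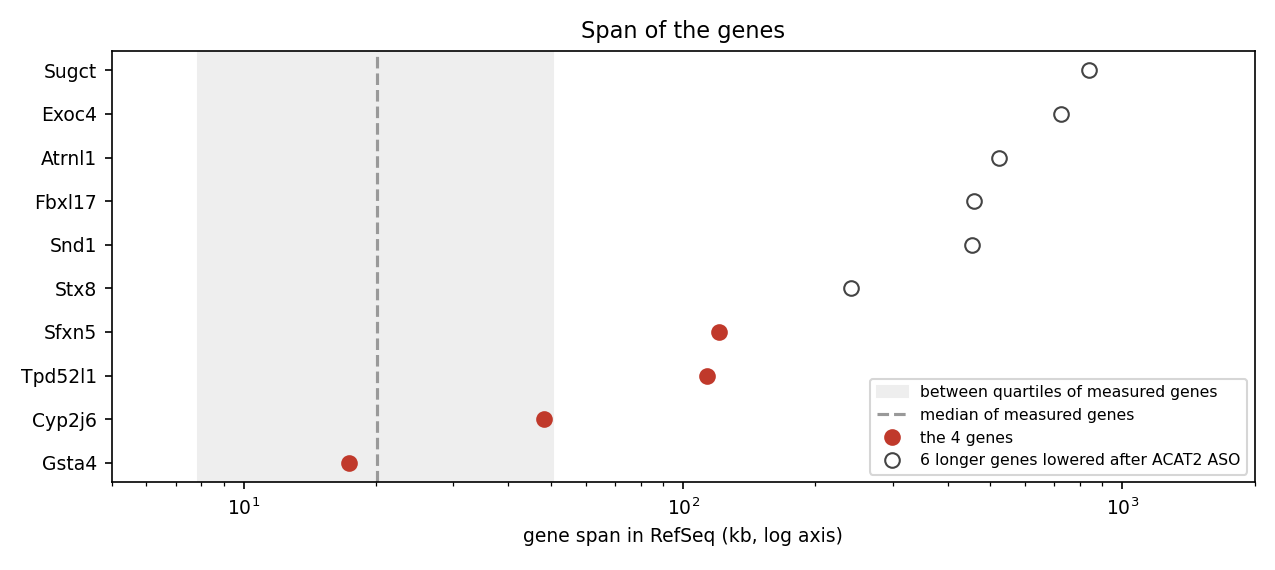
Genomic span in kilobases (log axis) of the 4 genes and of 6 long genes lowered in the same comparison, from RefSeq, with the median and quartiles of all measured genes. Of the 4 genes, Gsta4 lies below the median of 20.1 kb and the other 3 above it, and all 6 long genes lie at 241 kb or more.

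Tpd52l1 had the largest difference of the 4. Its log2 signal was 7.45, 7.25, 7.05 and 7.23 in control ASO samples 1 to 4, and 5.13, 5.76, 5.43 and 5.40 in ACAT2 ASO samples 1 to 4. The groups lay far apart, with 1.29 log2 units between the lowest control and the highest ACAT2 ASO sample. Groups did not overlap in this direction for 4.67% of all genes. The means were 7.24 ± 0.16 and 5.43 ± 0.26 (SD, n = 4 each), a difference of -1.82, which leaves 28.4% of the control signal on a linear scale. In rank, this difference was the 3rd lowest of 17097.

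In the transgenic model Tpd52l1 was nearly level. It read 7.42, 6.86, 7.19, 7.38 and 7.18 in wild type samples 1 to 5 and 7.27, 7.54, 7.24, 7.38 and 7.32 in transgenic samples 1 to 5. The groups overlapped, and wild type 2 was the lowest array. The difference was 0.15 ± 0.12 (limma's SE, 95% interval -0.10 to 0.39, adjusted p = 0.714). Without wild type 2 it was 0.06.

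Its relatives did not pass the test. Of the 4 genes of the D52 family 3 were measured. After the ACAT2 ASO, Tpd52, the founding member, differed by -0.15 ± 0.12 (limma, adjusted p = 0.651) and Tpd52l2 by -0.13 ± 0.05 (limma, adjusted p = 0.290). The other probe sets of Tpd52l2 gave 0.04, 0.08 and -0.06, and those of Tpd52 0.06, 0.02 and -0.02. With the transgene Tpd52 differed by 0.04 and Tpd52l2 by -0.04, with limma adjusted p of 0.938 and 0.841. Of 7 genes whose proteins bind or act with the D52 family, 0 passed the test after the ACAT2 ASO, where 0.597% of all genes did, and 2 had an unadjusted p under 0.05. These were Map3k5, the stress kinase ASK1 (0.55 ± 0.18, limma adjusted p = 0.179), and Anxa6, a membrane-binding annexin (-0.27, limma adjusted p = 0.362).

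Sfxn5 was lower in all 4 ACAT2 ASO samples than in any control, a separation seen for 4.67% of all genes in this direction. It read 6.84, 6.85, 6.79 and 6.64 with the control ASO and 5.54, 5.92, 5.97 and 5.57 with the ACAT2 ASO. All 4 control values lay close together, and 0.67 log2 units separated the groups. The means were 6.78 ± 0.10 and 5.75 ± 0.23 (SD, n = 4 each), a difference of -1.03, or 49.1% of the control signal. It was the 12th lowest difference.

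Of the 4 genes, Sfxn5 alone had an unadjusted p under 0.05 in the transgenic model, and there its difference was positive. Wild type samples read 6.28, 6.22, 6.37, 6.50 and 6.38 and transgenic samples 6.49, 6.54, 6.78, 6.49 and 6.65. All 5 transgenic values were above the wild type mean, and the groups overlapped because wild type 4 was higher than transgenic 1 and transgenic 4. The difference was 0.24 ± 0.09 (limma's SE, 95% interval 0.06 to 0.42, unadjusted p = 0.0136), and it did not pass after adjustment over all genes (limma, adjusted p = 0.307). This was at the 97.6th percentile of the differences of all genes.

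Of the other sideroflexins, 3 of 4 were measured, and none passed the test after the ACAT2 ASO. Sfxn2, also a mitochondrial carrier, came nearest. It read 8.73, 8.91, 8.62 and 8.61 with the control ASO and 8.45, 8.46, 8.46 and 8.40 with the ACAT2 ASO. These groups did not overlap, which held for 4.67% of all genes in this direction. The difference was -0.27 ± 0.08 (limma, adjusted p = 0.137), and all 4 of its probe sets were lower (-0.27, -0.27, -0.31 and -0.17). Sfxn3 differed by -0.03 and Sfxn4 by 0.02 (limma, adjusted p = 0.899 and 0.960), and either sign changed when 1 array was left out. None of these 3 was called in the transgenic model (limma).

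Genes of the pathways linked to sideroflexins were examined as well. Of 13 measured genes of serine and one-carbon metabolism, 9 were below 0 after the ACAT2 ASO and 0 passed the test, with a median of -0.07 against -0.00056 over all genes. In this comparison 0.597% of all genes passed. The lowest p was that of Shmt1, which interconverts serine and glycine in the cytosol (-0.45 ± 0.14, limma adjusted p = 0.143, and -0.30 without ACAT2 ASO 1), followed by Psph, the last enzyme of serine synthesis (-0.21, limma adjusted p = 0.236). Of 9 measured genes of citrate transport and use, 0 passed, 3 were below 0 and the median was 0.0062. Idh2, the mitochondrial NADP-dependent isocitrate dehydrogenase, differed by -0.37 ± 0.12 (limma, adjusted p = 0.174), and Slc13a5, the citrate carrier of the plasma membrane, by 0.26 (limma, adjusted p = 0.288). Slc13a5 differed the other way with the transgene, by -0.36 ± 0.09 (limma, adjusted p = 0.132). There 0 genes of either list passed, where 0.228% of all genes did. With the probe sets of a gene averaged, Slc13a5 differed by -0.14 with the transgene and 0.092 after the ASO, and Idh2 by -0.20 after the ASO.

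Cyp2j6 was measured by 2 probe sets that gave the same size of difference. The brighter set read 7.33, 6.95, 6.77 and 7.58 with the control ASO and 5.87, 6.54, 6.17 and 5.96 with the ACAT2 ASO. The groups were separated by 0.23 log2 units, since control 3 was low and ACAT2 ASO 2 high. The means were 7.16 ± 0.37 and 6.14 ± 0.30 (SD, n = 4 each), a difference of -1.02, or 49.2% of control, the 13th lowest of all genes. The second set read 6.28, 5.80, 5.58 and 6.42 against 5.02, 5.62, 4.85 and 4.71. Here ACAT2 ASO 2 was higher than control 3, so the groups overlapped, and 15 of 16 pairs of samples were lower. Groups lay fully apart in this direction for 4.15% of probe sets. The difference was -0.97, or 51.0% of control. Without the 3 arrays that stood apart the differences were -0.79 and -0.83.

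No Cyp2j6 difference was detected between transgenic and wild type samples. The brighter set gave 7.92, 7.84, 7.82, 8.07 and 7.60 without the transgene and 7.97, 7.93, 7.58, 7.82 and 7.98 with it. The ranges covered each other. The difference was 0.0068 ± 0.15 (limma's SE, 95% interval -0.31 to 0.32, adjusted p = 0.994), and its sign turned with quantile normalization and with the mean of both probe sets. The second set differed by -0.11 ± 0.17 (limma over every probe set, 95% interval -0.46 to 0.24, adjusted p = 0.883), where 0.173% of probe sets were called.

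The other measured genes of the Cyp2j cluster did not pass the test. Cyp2j5, an abundant fatty acid epoxygenase of liver and kidney, had means of 11.15 ± 0.17 with the control ASO and 11.05 ± 0.15 with the ACAT2 ASO (SD, n = 4 each), a difference of -0.10 ± 0.09 (limma, adjusted p = 0.703). Cyp2j9 differed by -0.13 ± 0.20 and Cyp2j13 by -0.05 (limma, adjusted p = 0.861 and 0.831), and the sign of Cyp2j9 changed when 1 array was left out. In RefSeq, Cyp2j13 lies on one side of Cyp2j6, and Cyp2j9 and Cyp2j5 lie on the other. Only 4 of the 8 listed Cyp2j genes, Cyp2j6 included, had a probe set assigned to them alone, and whether probes of close relatives share signal was not tested. Of 13 measured genes that make or break down fatty acid epoxides, 8 were above 0 after the ACAT2 ASO with a median of 0.05. None passed the test, where 0.597% of all genes did. Those with the lowest p were Cyp2c70, better known for making muricholic acids (0.27 ± 0.07, limma adjusted p = 0.0928), and Cyp4f14, a fatty acid hydroxylase (0.33, limma adjusted p = 0.275).

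Gsta4 was lower after the ACAT2 ASO and the most variable of the 4 in the ASO model. It read 9.28, 8.82, 8.62 and 8.37 with the control ASO and 7.14, 7.93, 7.70 and 8.33 with the ACAT2 ASO. Only 0.039 log2 units separated control 4 from ACAT2 ASO 4, and 4.67% of all genes had groups apart in this direction. The means were 8.77 ± 0.38 and 7.78 ± 0.50 (SD, n = 4 each), a difference of -1.00, or 50.1% of control, the 15th lowest. Without ACAT2 ASO 1, the lowest array, the difference was -0.79.

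Gsta4 was level in the transgenic model. Wild type samples read 9.35, 9.41, 9.52, 9.29 and 9.35 and transgenic samples 9.01, 9.58, 9.53, 9.39 and 9.35. Transgenic 1 was the lowest and the other 4 fell among or just above the wild type values. The difference was -0.015 ± 0.18 (limma's SE, 95% interval -0.40 to 0.37, adjusted p = 0.988), and it was 0.08 without transgenic 1.

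Gsta2, another alpha-class transferase and the third measured gene to one side of Gsta4 on the chromosome, was the only other measured member of the class among 6 listed. It read 10.15, 9.07, 8.48 and 9.40 with the control ASO and 8.41, 8.52, 8.35 and 8.83 with the ACAT2 ASO. The groups overlapped, with control 3 as low as the treated samples. The difference was -0.75 ± 0.28 (limma, adjusted p = 0.244), and its other probe set gave -0.95 (limma over every probe set, adjusted p = 0.118). It was -0.46 without control 1, the highest sample, and -1.02 without control 3. With the transgene it differed by -0.32 ± 0.25 (limma, adjusted p = 0.710).

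Glutathione transferases outside the alpha class were mostly below 0 after the ACAT2 ASO, yet none passed the test, where 0.597% of all genes did. Of 16 measured, 13 were below 0 and the median was -0.14, where 50.3% of all genes were below 0. Gstt2, of the theta class, read 10.30, 9.77, 9.93 and 9.94 with the control ASO and 8.24, 9.54, 9.35 and 9.39 with the ACAT2 ASO. The groups did not overlap, which held for 4.67% of all genes in this direction, and ACAT2 ASO 1 stood well below the rest. The difference was -0.86 ± 0.20 (limma, adjusted p = 0.0635), and it passed the test without ACAT2 ASO 1 (-0.56, limma adjusted p = 0.0491) and without ACAT2 ASO 2 (-0.99, limma adjusted p = 0.0292). Gstm2, of the mu class, read 7.88, 8.26, 7.41 and 8.91 against 7.27, 7.71, 6.82 and 6.94, and its groups overlapped (-0.93 ± 0.31, limma adjusted p = 0.174).

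Other routes that clear 4-hydroxynonenal were balanced. Of 14 measured genes, 7 were below and 7 above 0 after the ACAT2 ASO, with a median of 0.0079. None was called, where 0.597% of all genes were. The lowest p belonged to Akr1b8, an aldo-keto reductase (-0.22, limma adjusted p = 0.287), and Cbr1, a carbonyl reductase (-0.27, limma adjusted p = 0.301). Of 16 measured targets of NRF2, the factor that induces many glutathione genes, 0 were called and 0 had an unadjusted p under 0.05, with a median of -0.03. Over all genes these shares were 0.597% and 13.3%, so 0 calls in lists this short say little about these routes. Osgin1 differed by -0.45 and the drug exporter Abcc4 by -0.64 (limma, adjusted p = 0.594 and 0.608). Without control 3 Osgin1 was at -0.23, and without control 1 Abcc4 was at -0.13. No gene of these lists passed the limma test in the transgenic model, where 0.228% of all genes did. Nfe2l2, which encodes NRF2, differed there by -0.31 ± 0.08 (limma, adjusted p = 0.148), and by -0.043 when its probe sets were averaged.

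**Figure D2:**
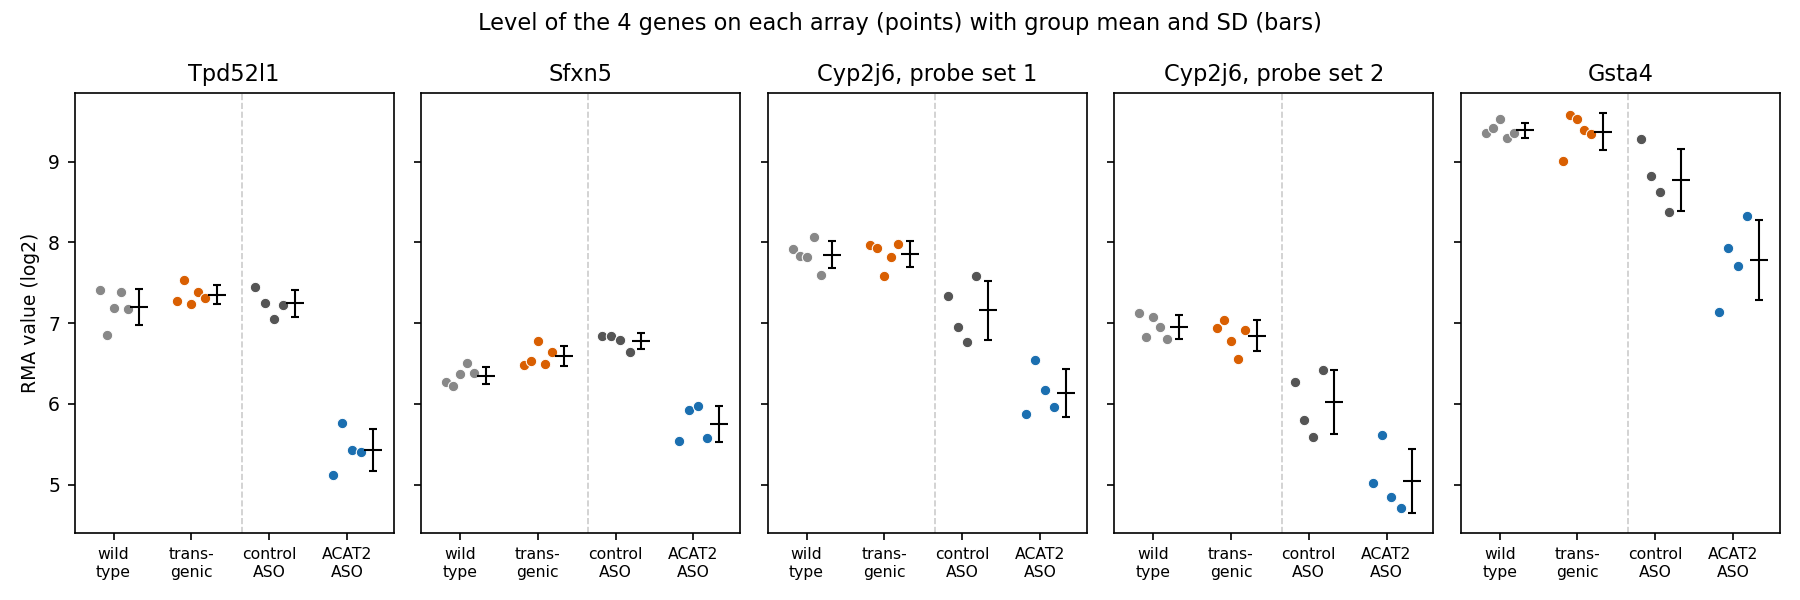
RMA log2 signal of the 5 probe sets of the 4 genes in each of the 18 arrays, by group, with the group mean and SD. All ACAT2 ASO samples lie below all control ASO samples except for the second Cyp2j6 probe set. The genes were chosen for low values with the ACAT2 ASO, and 4.15% of all probe sets had groups fully apart in this direction. The wild type and transgenic samples overlap in every panel.

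Counted together, 0 of the 4 genes were called in the transgenic model, where 0.228% of all genes were, and 1 of 4 had an unadjusted p under 0.05, against 10.9% of all genes. In the ASO comparison all 4 were called lower, against 0.415% of all genes. That count follows from how they were chosen, and nothing is read from it. Across all the family and pathway lists, 97 further genes were measured. After the ACAT2 ASO 0 of them were called, against 0.597% of all genes. An unadjusted p under 0.05 was found for 18, against 13.3% of all genes, with 12 of the 18 lower. The median difference of the 97 was -0.03. With the transgene 0 were called and 7 had an unadjusted p under 0.05, against 0.228% and 10.9% of all genes.

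**Figure D3:**
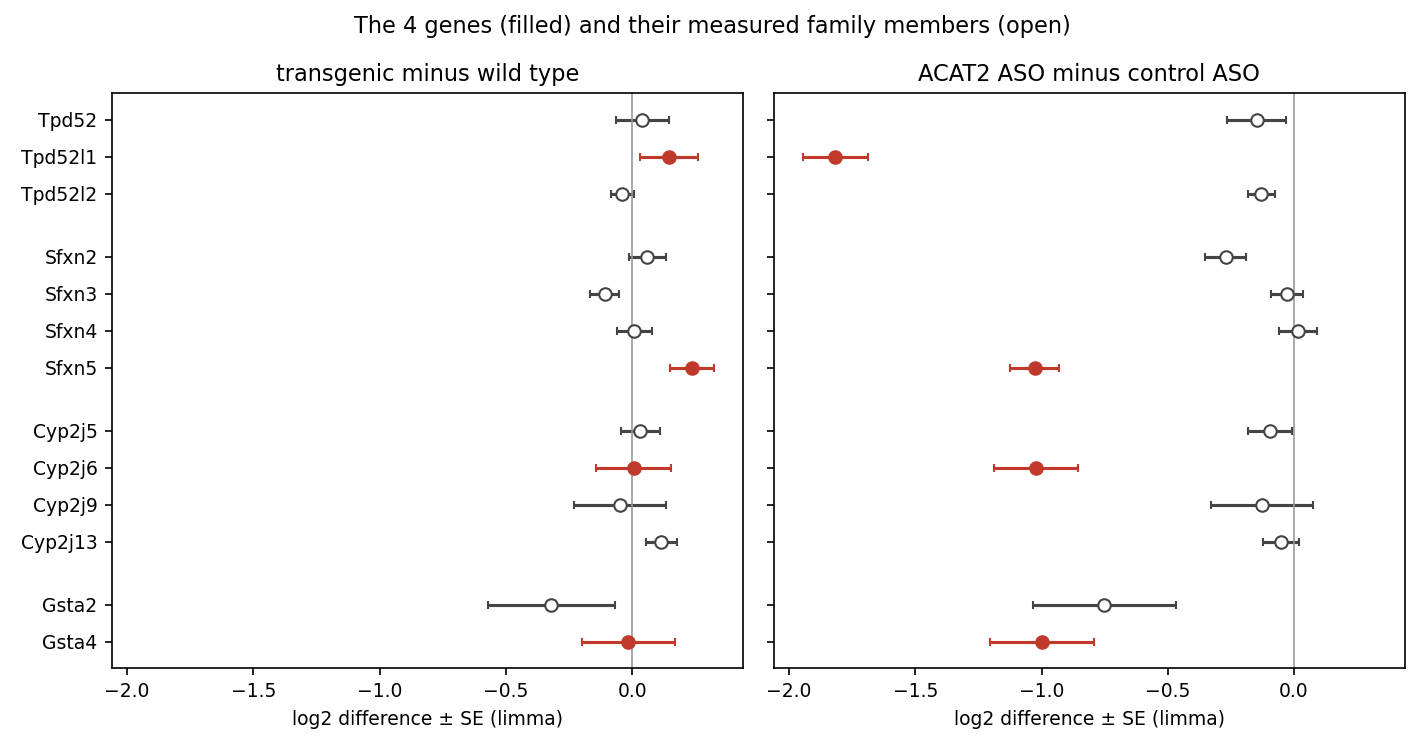
Log2 difference with limma's standard error for the 4 genes and the measured members of their families in both comparisons, each against 0; for the 4 genes in the ASO comparison the value is a description. After the ACAT2 ASO the 4 genes, chosen for their low values there, lie between -1.82 and -1.00. The relatives, which were not chosen so, lie between -0.75 (Gsta2, whose other probe set gave -0.95) and 0.02 (Sfxn4).

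Genes next to the 4 in the genome did not pass the test. The 24 nearest measured genes, 3 on each side, gave 0 calls in either comparison, where 0.597% (ASO) and 0.228% (transgene) of all genes were called. After the ACAT2 ASO their differences ran from -0.75 (Gsta2) to 0.20 (Ncoa7, beside Tpd52l1), with a median of -0.02 and a lowest limma adjusted p of 0.244, and 4 of 24 had an unadjusted p under 0.05, against 13.3% of all genes. With the transgene 2 of 24 had one, against 10.9%.

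The 4 genes differed in how they varied within groups. ACAT2 ASO 1 was the lowest of its group for all 4 genes, with Cyp2j6 taken by its brighter probe set. For Tpd52l1, Sfxn5, Cyp2j6 and Gsta4 it lay at -0.30, -0.21, -0.27 and -0.63 from the group mean. In the second Cyp2j6 set ACAT2 ASO 4 was the lowest (4.71), and ACAT2 ASO 1 (5.02) was also above ACAT2 ASO 3 (4.85). ACAT2 ASO 2 was above the mean for all 4, by 0.33, 0.17, 0.41 and 0.15. ACAT2 ASO 4 was 0.56 above it for Gsta4, and below it for the other 3 genes. Control 4 was high for Cyp2j6 (0.42) and low for Gsta4 (-0.40). Over all 18 arrays, the deviations from the group means correlated most between Tpd52l1 and Cyp2j6 (Pearson r = 0.60) and least between Cyp2j6 and Gsta4 (r = 0.00045). The other pairs gave 0.44 for Tpd52l1 with Gsta4, 0.42 for Tpd52l1 with Sfxn5, 0.27 for Sfxn5 with Gsta4 and 0.12 for Sfxn5 with Cyp2j6. The 2 probe sets of Cyp2j6 gave 0.81. The points share arrays, and hence RNA quality and cell makeup, so these values are descriptions.

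**Figure D4:**
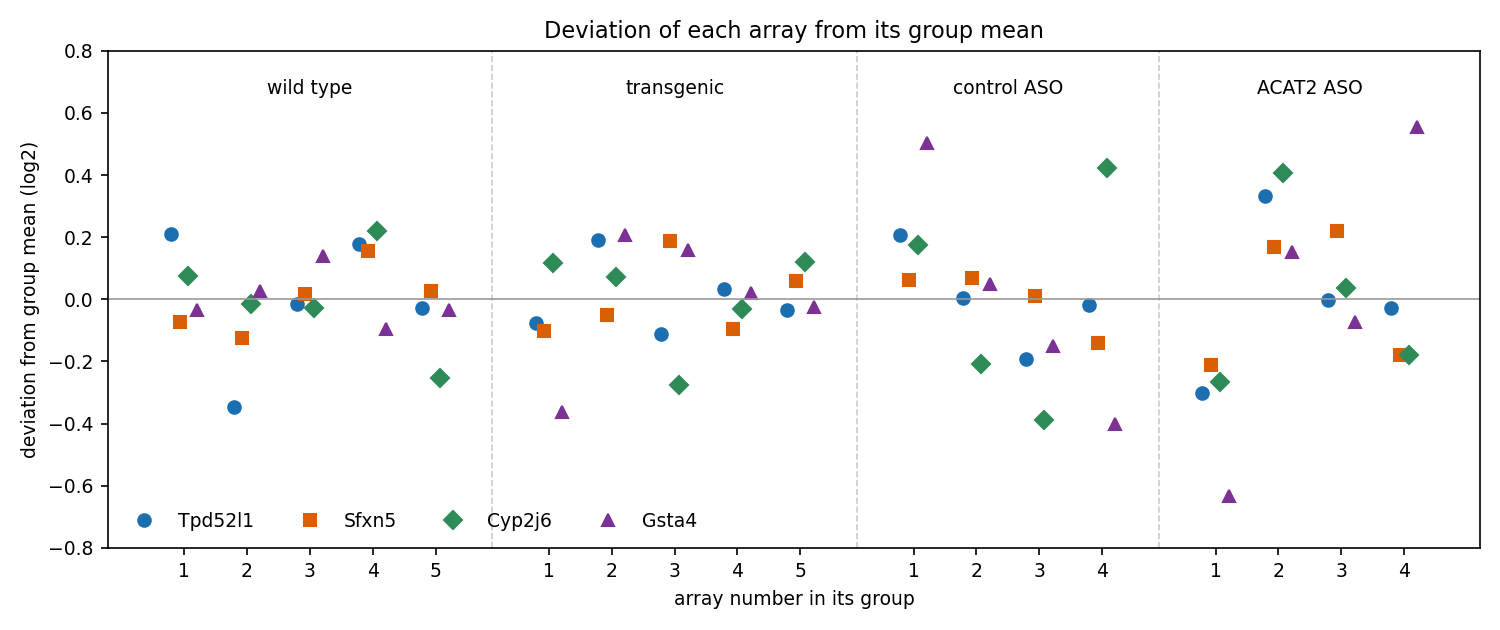
Deviation of each of the 18 arrays from its group mean (log2) for the 4 genes, with Cyp2j6 by its brighter probe set. ACAT2 ASO 1 lies below its group mean for all 4 genes and ACAT2 ASO 2 above it, while ACAT2 ASO 4 is high for Gsta4 and below 0 for the others.

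The genes most like each of the 4 were looked up among 10257 genes with a mean above the 40th percentile. Genes with symbols of the Gm, LOC, Rik or accession-like kind were passed over, so the nearest genes are those among the rest. By deviations from the group means over 18 arrays, these were Gstk1 (0.92), Cox8a (0.90) and Fam47e (0.90) for Tpd52l1, and Fbxl4 (0.90), Ces1f (0.83) and Lrp4 (0.82) for Sfxn5. For Cyp2j6 they were Dap3 (0.93), Trappc6a (0.84) and Nudt2 (0.83), and for Gsta4 Abcb1a (0.88), Papss2 (0.86) and Cd36 (0.85). Over the 8 arrays of the ASO model, where the group difference enters, Tpd52l1 and Sfxn5 were each among the other's 3 nearest genes (r = 0.97). Both were chosen for that group difference, so a high r between them follows from the choice. By deviations from the group means it was 0.42. Lars2 (0.98) was nearest to Tpd52l1, Tmem53 (0.98) to Sfxn5, Lenep (0.99) to Cyp2j6 and Rfk (0.98) to Gsta4.

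Markers of other cells and of liver zones gave no calls in the ASO comparison, where 0.597% of all genes were called. At that share a short list would mostly give none. All 10 macrophage and Kupffer cell markers were above 0 after the ACAT2 ASO, with a median of 0.42 and a lowest limma adjusted p of 0.313. Their mean per array ran from 7.48 to 8.84 with the control ASO and from 7.44 to 9.28 with the ACAT2 ASO. Of 8 periportal hepatocyte genes 6 were below 0, with a median of -0.20. Their mean per array was 8.96 to 9.19 with the control ASO and 8.64 to 8.98 with the ACAT2 ASO. With the transgene 7 of the 8 periportal genes were also below 0, with a median of -0.15 and a lowest limma adjusted p of 0.251. The macrophage and pericentral medians were 0.02 and -0.0039 with the transgene. Of 9 pericentral genes 7 were above 0, with a median of 0.22. The one with the lowest adjusted p, Slc1a2, went the other way (-0.52, limma adjusted p = 0.0563). Bile duct markers, 5 measured of 7, had a median of -0.08 and a mean per array of 4.17 to 4.81 with the control ASO and 4.08 to 4.14 with the ACAT2 ASO. Among them the keratin Krt19 differed by -1.12 (limma, adjusted p = 0.170). Medians for lymphocyte, endothelial and stellate cell markers lay between -0.01 and 0.0074. The part of cell makeup and zonation in the differences of the 4 genes was not tested.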

How the data were processed

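Liver RNA of 18 samples was amplified by a 3′-directed procedure and hybridised to 1-colour arrays, per the labels' protocols. The authors summarised each probe set with RMA, per the submitters' processing notes, and deposited log2 values. Its version is not given in the sources used. Of 45141 probe sets, 104 controls were left out. The platform annotation gave 1 symbol for 28898, several for 551 and none for 15588. Of several probe sets for a gene, the one brightest on average was kept, which gave 17097 genes, with no filter on low values.

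Group means were fitted over all 18 arrays with limma 3.58.1 (R 4.3.3, lmFit and eBayes), and p-values were adjusted by Benjamini-Hochberg over all genes, two-sided, with calls at 0.05. The second Cyp2j6 probe set came from the same fit over 45037 probe sets. The fit was tested on simulated data. In the ASO comparison it called 65 of 67 genes changed by 1 log2 unit, and 10 of 16897 unchanged genes. The simulated arrays were independent with 1 spread per gene, so the test does not cover arrays that stand apart. The number of arrays limits the precision.

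The members and gene lists were chosen with earlier results of these data known. The genes that could be named were the 4, their measured relatives and neighbours, up to 2 members of each list and comparison with the lowest p, the 3 genes most correlated with each by 2 measures, and 6 long genes for their span. Spans, neighbours and promoters are from RefSeq (GRCm38.p6); the files name no build. Alternatives covered probe set choice, a filter, quantile normalization, array weights, separate fits, a replicate block and leaving out arrays.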

Additional observations from a re-analysis of the deposited data

Results flagged for a closer look

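Sfxn5 and Tpd52l1 lay on opposite sides of their controls in the 2 models. For Sfxn5 the log2 difference was 0.24 in the transgenic model and -1.03 after the ACAT2 ASO, and for Tpd52l1 it was 0.15 and -1.82. Neither transgenic difference passed the test (limma, adjusted p = 0.307 and 0.714), the interval of Tpd52l1 spanned 0, and without wild type 2 its difference was 0.06. For both genes all 5 transgenic arrays were above the wild type mean, which for Tpd52l1 was pulled down by wild type 2 (6.86). All 4 ACAT2 ASO arrays were below the control ASO mean, which follows from how the genes were chosen. The shares of all genes that meet these counts were not computed. The difference between the models was not tested, because the genes were chosen from the ASO comparison. Dixon's test for an outlying array passed its critical value in 0 of the 20 groups of values of the 5 probe sets. With 4 or 5 arrays a group it detects only very wide gaps, and it does not bear on the 3 arrays with a lower correlation.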

How the results depend on the processing

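The ASO differences of the 4 genes, for which they were chosen, stayed below 0 under every alternative run. Except for the second Cyp2j6 probe set the groups did not overlap, so leaving out arrays could not turn the sign. Alternatives that change only the estimate of the spread leave the difference as it was. Only the sizes are therefore described. Leaving out 1 array gave -1.93 to -1.72 for Tpd52l1, -1.10 to -0.96 for Sfxn5, -1.16 to -0.88 for Cyp2j6 (-1.16 to -0.84 for its second probe set) and -1.18 to -0.79 for Gsta4. Without the 3 arrays that stood apart, an alternative chosen after seeing the data, they were -1.72, -1.00, -0.79 and -0.92. None of the 4 was called in the transgenic model under any alternative. The Cyp2j6 difference turned to -0.050 with the mean of its probe sets and -0.0045 with quantile normalization, and ran from -0.056 to 0.076 without single arrays. That of Gsta4 ran from -0.067 to 0.076, that of Tpd52l1 from 0.06 to 0.20 and that of Sfxn5 from 0.19 to 0.28 (limma adjusted p 0.273 to 0.478).

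Counts over all genes moved more, and the cause was not tested. In the transgenic model 39 calls became 78 with every probe set by itself, 13 in a fit on its own arrays, and 20 to 58 without single arrays. In the ASO model 102 calls became 465 with array weights, 219 with every probe set, 17 on its own arrays, 46 without the 3 arrays, and 42 (without ACAT2 ASO 3) to 203 (without ACAT2 ASO 2). Sample numbers gave no sign of pairing: 0 of 10 and 2 of 8 arrays correlated best with their own number. With so few arrays this check cannot exclude a pairing or a shared batch. With the replicate block the counts were 2 and 18, and the adjusted p of Sfxn5 in the transgenic model was 0.373 (limma).

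Of the family and pathway genes, 3 were called after the ACAT2 ASO with array weights: Sfxn2 (-0.30, limma adjusted p = 0.0373), Cyp2c70 (0.29, 0.0255) and Gstt2 (-0.73, 0.0343), and 0 to 1 without single arrays. With array weights those 3 were 3.09% of the 97, and 2.72% of all genes were called. Small differences changed sign. Sfxn2 in the transgenic model was -0.029 with the mean of probe sets, Sfxn3 after the ASO was 0.0062 with array weights, and Sfxn4 in the transgenic model was -0.0058 without the 3 arrays. Without single arrays, transgenic differences ran from -0.033 to 0.043 (Sfxn4), -0.011 to 0.061 (Cyp2j5), -0.13 to 0.027 (Cyp2j9) and -0.032 to 0.11 (Tpd52). ASO differences ran from -0.025 to 0.058 (Sfxn4), -0.059 to 0.032 (Sfxn3) and -0.32 to 0.042 (Cyp2j9). The filter on low values gave no value for Sfxn4 and Cyp2j13, and averaging probe sets none for the second Cyp2j6 set by itself.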
